A study of Mus musculus with 4 samples.

Results

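The Rab small GTPase genes were followed through 4 sorted populations of maturing mouse red cell precursors. Members were the symbols made of Rab, a number and at most 1 letter and 1 further digit, with Rab11a left out, and 55 of the 19564 symbols in the files met this rule. The cells came from fetal livers at E14.5 and were sorted fresh, with no culture, by 2 surface proteins. These were TER119, an erythroid antigen, and the transferrin receptor CD71. R2 held proerythroblasts and early basophilic erythroblasts, R3 early and late basophilic ones, R4 mostly polychromatophilic and orthochromatophilic ones, and R5 late orthochromatophilic erythroblasts with reticulocytes. No strain, genotype or treatment is named in the labels, and all populations are of untreated fetal liver as far as the labels say. Each population gave 1 library of polyadenylated RNA, so no difference below has a replicate check and none has a p-value.

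Rab proteins are small GTPases that switch between a GTP-bound form on membranes and a GDP-bound form held in the cytosol by a chaperone. On a membrane the active form recruits effectors that form, move, tether and fuse vesicles, and different Rab proteins mark different compartments. Exchange factors load GTP, GTPase activating proteins trigger its hydrolysis, and a lipid anchor added at the C-terminus attaches the protein to membranes. In red cell precursors endosomal Rab proteins serve the uptake and recycling of transferrin and its receptor, while the endomembrane system as a whole is dismantled before the reticulocyte matures.

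Values are RPKM, reads per kilobase of gene scaled to the depth of the library. Levels are set side by side between genes within a library, though the gene lengths used are not given. Gapdh, a gene of all cells, had no listed signal in R3, so a low listed value need not be a low level. Depth was estimated from the steps of 2 to 5 values a library, with 2 in R4. A step was taken as the RPKM of 1 read over 1 base. Fitted within a preset range, which also limits the outcome, these steps put the depth at 20700000 to 27400000 reads a library. At that depth a 1 kb gene at 10 RPKM would rest on 207 to 274 reads. All read counts and intervals below depend on this estimate. Globin genes took 5.52%, 59.4%, 80.4% and 81.9% of all RPKM from R2 to R5, which lowers the RPKM of every other gene. Ratios are therefore given as deposited and, where it matters, after median scaling (each library divided by the median of its gene ratios) or after removal of the globin genes. Over all 9942 genes that reached 1 RPKM in at least 1 library, the median log2 ratio of RPKM + 1 in R5 against R2 was -1.65 as deposited, -0.42 after median scaling and -0.68 without globin genes. Of the erythroid markers, Slc4a1, the anion exchanger of the red cell membrane, was at 164, 2342, 2667 and 1734 RPKM, and Alas2, the erythroid enzyme that starts heme synthesis, at 75.3, 1129, 1797 and 1406 RPKM. The transcription factor gene Klf1 was at 254, 418, 257 and 255 RPKM and the erythropoietin receptor gene Epor at 144, 200, 97 and 109 RPKM, so that Klf1 was level and Epor lower in R5 against R2. Markers of other cells were also present. The 9 measured granulocyte markers of a list of 10 summed to 6025, 418, 232 and 463 RPKM from R2 to R5, led by Mpo and S100a9, and all 9 were highest in R2. Because these are bulk samples, fewer cells of a type and less RNA per cell cannot be told apart.

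Of the 55 Rab genes, 37 reached 1 RPKM in at least 1 library and 21 reached 10 RPKM. By role, 17 members act in endocytosis, recycling or lysosomal delivery, and 13 of these reached 1 RPKM. Another 21 act between the endoplasmic reticulum, the Golgi and the plasma membrane, with 13 at that level, and 17 have other or less settled roles, with 11. The summed Rab signal was 866, 499, 307 and 301 RPKM from R2 to R5. Set against the summed RPKM of all genes other than globins, a measure that does not depend on the globin load, it was 0.230%, 0.227%, 0.222% and 0.190%. The Rab sum thus held a nearly constant part of the rest of the transcriptome from R2 to R4 and a smaller part in R5. Within that sum, Rab43 alone went from 2.44% in R2 to 10.5% in R3 and 18.1% in R4. The near constancy is therefore of the sum and not of its members. Endocytic members made up 52.2%, 54.5%, 48.3% and 51.3% of the Rab sum from R2 to R5, secretory members 32.0%, 35.1%, 42.3% and 36.6%, and the others 15.8%, 10.4%, 9.43% and 12.0%. Of the secretory sums of 277.1, 175.0, 129.6 and 110.3 RPKM, Rab43 alone held 21.2, 52.1, 55.6 and 34.2 RPKM. The higher secretory share in R3 and R4 thus rests on this gene and is not a course shared by the group.

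**Figure D1:**
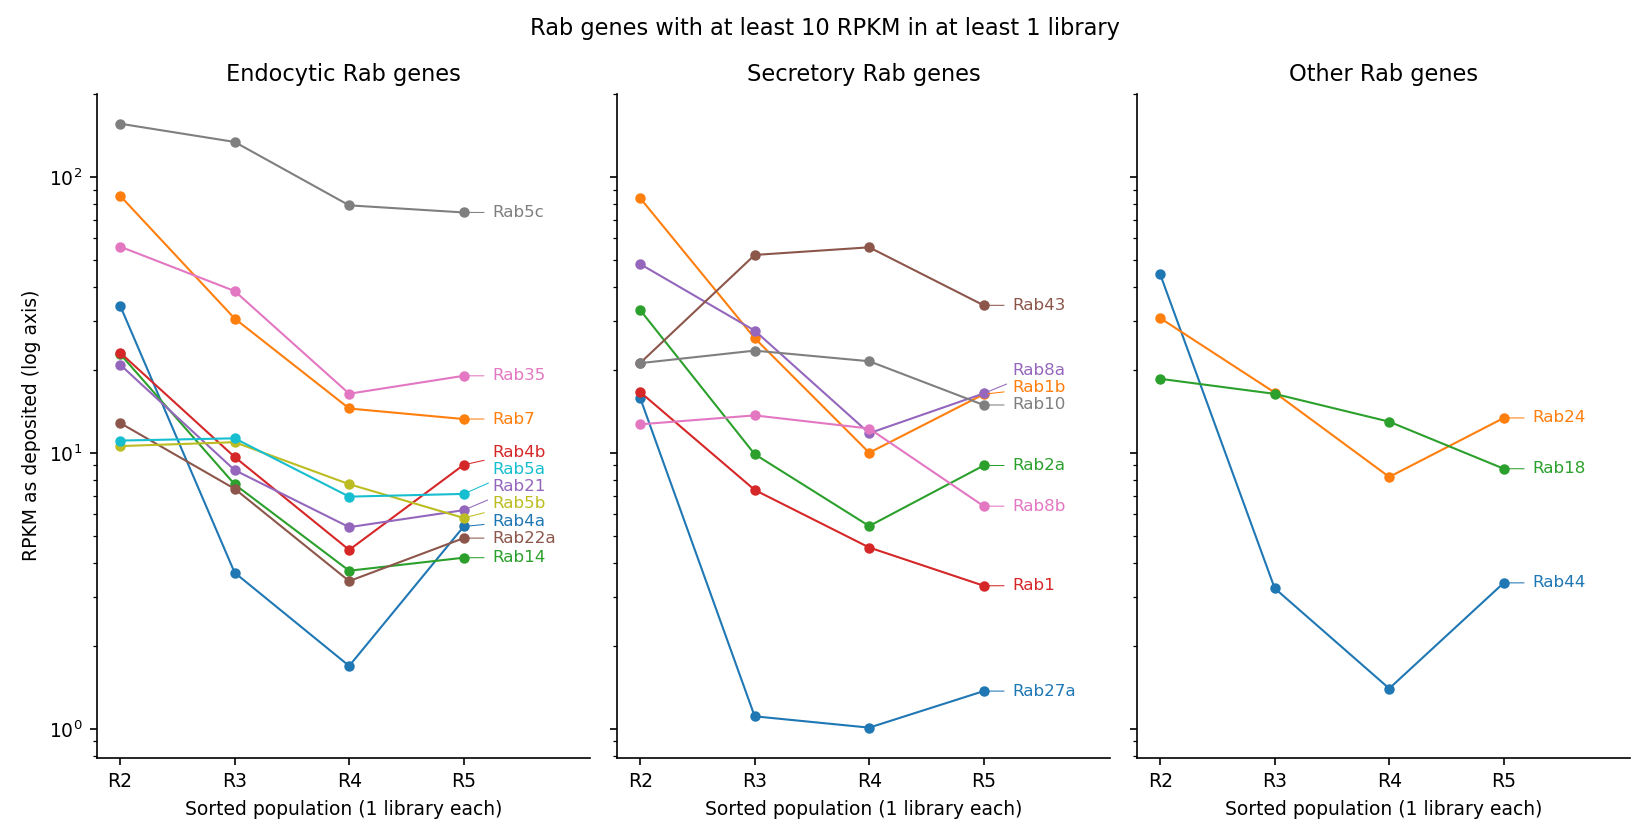
RPKM as deposited (log axis) of the 21 Rab genes that reached 10 RPKM, in R2, R3, R4 and R5 (1 library each, points joined by lines), split by role. Rab5c was the highest in every population, from 156 RPKM in R2 to 74.3 in R5, and Rab43 was the only one of the 21 lowest in R2.

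Among the endocytic members, the early endosome gene Rab5c led in every library. It stood at 156, 134, 78.9 and 74.3 RPKM from R2 to R5, which was 18.0%, 26.8%, 25.7% and 24.7% of the summed Rab signal. Its log2 ratio in R5 against R2 was -1.06 as deposited, but 0.53 after median scaling and 0.18 without globin genes. The other genes of this subfamily, whose products act with it in the fusion of early endosomes, were lower. Rab5a was at 11.1, 11.3, 6.94 and 7.10 RPKM from R2 to R5. Rab5b was at 10.6, 10.9, 7.70 and 5.81 RPKM. As deposited, both were level between R2 and R3, where the median over all genes was -1.09, and both were lower in R4 and R5. With median scaling both were lowest in R2 and highest in R4. Their log2 ratios in R5 against R2 were -0.58 and -0.77 as deposited, 0.84 and 0.64 after median scaling and 0.54 and 0.34 without globin genes.

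Rab7, which directs late endosomes and their fusion with lysosomes, followed another course. It was second among the 55 members in R2, at 85.5 RPKM, and was at 30.7 in R3, about 14 in R4 and 13.3 in R5, where it ranked 8 of 55. Its log2 ratio in R5 against R2 was -2.60 as deposited, -1.05 after median scaling and -1.39 without globin genes, so that it was at least 2-fold lower under each scaling. Its share of the summed Rab signal, which no scaling alters, was 9.87%, 6.15%, 4.72% and 4.40%.

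Rab genes of the recycling pathway were divided. Rab35, which acts in recycling from endosomes to the plasma membrane, was at 55.9, 38.6, 16.4 and 19.0 RPKM from R2 to R5 and ranked 3 or 4 of 55 in every library. Rab4a and Rab4b, whose products act in fast recycling from early endosomes, were at 34.2 and 23.1 RPKM in R2. Rab4a then stood at 3.68 in R3, 1.69 in R4 and 5.41 in R5. Rab4b stood at 9.66, 4.45 and 9.05. Rab4a was the higher of the pair in R2 only, and Rab4b was the higher in R3, R4 and R5. Both were higher in R5 than in R4, Rab4a by 3.20-fold (interval 2.47 to 4.22) and Rab4b by 2.03-fold (interval 1.73 to 2.40). These intervals and those below are exact 95% binomial intervals on reads estimated from exonic length, and they cover counting error only. The annotated exons of Rab4b share 65.0% of their length with an overlapping locus on the same strand, Gm21983, which has no row of its own.

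The remaining endocytic genes that reached 10 RPKM were Rab14, Rab21 and Rab22a, which act between the Golgi and endosomes or on early endosomes. Rab14 was at 22.8, 7.69, 3.74 and 4.17 RPKM from R2 to R5. Rab21 was at 20.9, 8.66, 5.38 and 6.20 RPKM. Rab22a was at 12.8, 7.41, 3.43 and 4.91 RPKM. As deposited, R2 had the highest and R4 the lowest value of all 3. With median scaling their log2 ratios in R5 against R2 were -0.75, -0.13 and 0.19, so of the 3 only Rab14 lay below the all-gene median of -0.42.

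Of the 21 Rab genes that reached 10 RPKM, the secretory gene Rab43 alone had its lowest deposited value in R2. With median scaling 9 of the 21 were lowest in R2, and with globins removed 7. Rab43, a Golgi Rab that acts in transport from the endoplasmic reticulum to the Golgi, was at 21.2, 52.1, 55.6 and 34.2 RPKM from R2 to R5. It moved from rank 12 of the 55 members in R2 to rank 2 in R3, R4 and R5, and from 2.44% of the summed Rab signal to 18.1% in R4. R3 stood at 2.46 times R2 (interval 2.36 to 2.58), and the log2 ratio of that step was 1.26 as deposited, 2.08 after median scaling and 1.99 without globin genes. Of the 37 Rab genes past 1 RPKM, Rab43 was the only one at least 2-fold higher in R3 than in R2 under these 3 scalings. In R5 against R4 it was lower, with log2 ratios of -0.68, -1.05 and -0.88. Its annotated exons share 75.4% of their length with an overlapping locus on the same strand, Gm45140, which has no row of its own.

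Rab10 and Rab8b, which act in delivery of vesicles to the plasma membrane, held their level as deposited until R4. Rab10 was at 21.1, 23.5, 21.5 and 14.9 RPKM from R2 to R5, and its rank went from 13 of 55 in R2 to 3 in R4. Rab8b was at 12.7, 13.7, 12.2 and 6.41 RPKM, with ranks of 19, 10, 7 and 13. With median scaling both were higher in R3 than in R2, at log2 ratios of 0.96 and 0.88, and again in R4 than in R3, at 0.93 and 0.87, each short of 2-fold in a single step. Both were lower in R5 than in R4 under every scaling, Rab8b by 1.91-fold as deposited (interval 1.74 to 2.10) and Rab10 by 1.44-fold (interval 1.34 to 1.55).

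The other 5 secretory genes that reached 10 RPKM were highest in R2 as deposited. Rab1b, which acts between the endoplasmic reticulum and the Golgi, was at 83.8, 26.1, 10 and 16.3 RPKM from R2 to R5. Rab1, its close relative, was at 16.6, 7.34, 4.54 and 3.30 RPKM. Rab2a, which acts at the same boundary and at the Golgi, was at 32.9, 9.89, 5.43 and 9 RPKM. Rab1b and Rab2a were thus higher in R5 than in R4, by 1.63-fold and 1.66-fold, while Rab1 was lower by 1.38-fold. Rab8a, an exocytic Rab that also serves primary cilia, was at 48.3, 27.7, 11.8 and 16.4 RPKM, and its log2 ratio in R5 against R2 of -1.50 as deposited was 0.04 with median scaling.

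Rab43, Rab8b and Rab10 held or gained level as deposited from R2 to R4. Rab5c was the most abundant member, and Rab7 was lower in R5 than in R2 under each scaling. Sequence windows before the start sites are shown for these 5 members. They are the 250 bases before the outermost RefSeq start, 5′ to 3′ on the strand of the gene, from the RefSeq promoter table of build GRCm38.p6, which is not the build of the RPKM values. Capitals mark AGATAA and TGATAA, the letters bound by GATA factors, and CCNCNCCC, a form of the CACCC box bound by Krüppel-like factors, where N is any base. Both strands were searched, a match on the other strand appears as the reverse complement, and overlapping matches run together. All 5 genes lie on the minus strand, with Rab43 at chr6:87812165-87812414, Rab8b at chr9:66919706-66919955, Rab10 at chr12:3309970-3310219, Rab5c at chr11:100738216-100738465 and Rab7 at chr6:88045271-88045520.
Rab43: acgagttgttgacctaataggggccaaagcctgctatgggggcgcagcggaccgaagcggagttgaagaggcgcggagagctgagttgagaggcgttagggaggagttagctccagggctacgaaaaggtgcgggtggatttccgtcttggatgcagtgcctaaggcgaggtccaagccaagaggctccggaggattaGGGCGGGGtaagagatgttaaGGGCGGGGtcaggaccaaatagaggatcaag
Rab8b: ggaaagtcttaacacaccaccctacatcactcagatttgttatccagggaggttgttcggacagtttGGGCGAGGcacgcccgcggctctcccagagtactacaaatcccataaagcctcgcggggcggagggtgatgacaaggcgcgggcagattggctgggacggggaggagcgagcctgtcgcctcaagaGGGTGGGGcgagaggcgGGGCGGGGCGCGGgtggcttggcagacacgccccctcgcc
Rab10: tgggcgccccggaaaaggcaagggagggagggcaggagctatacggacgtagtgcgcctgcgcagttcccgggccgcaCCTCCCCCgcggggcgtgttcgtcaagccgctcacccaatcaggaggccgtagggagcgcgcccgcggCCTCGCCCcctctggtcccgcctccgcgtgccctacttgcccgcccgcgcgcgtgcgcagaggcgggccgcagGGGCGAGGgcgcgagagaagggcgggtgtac
Rab5c: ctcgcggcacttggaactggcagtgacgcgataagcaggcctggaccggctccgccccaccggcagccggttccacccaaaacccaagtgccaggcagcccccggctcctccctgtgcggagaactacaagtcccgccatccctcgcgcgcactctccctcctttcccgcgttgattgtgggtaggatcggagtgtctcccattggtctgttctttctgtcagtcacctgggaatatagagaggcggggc
Rab7: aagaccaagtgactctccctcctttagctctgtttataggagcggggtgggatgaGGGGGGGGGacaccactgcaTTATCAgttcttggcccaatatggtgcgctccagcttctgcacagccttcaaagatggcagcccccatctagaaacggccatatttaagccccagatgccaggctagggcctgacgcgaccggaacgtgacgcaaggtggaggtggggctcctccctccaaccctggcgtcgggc

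AGATAA or TGATAA stood in 16.6% of all 32851 windows in the table, and in 2 of the 17 windows found for the 21 Rab genes at 10 RPKM or more, those of Rab7 and Rab14. CCNCNCCC stood in 45.9% of all windows and in 14 of these 17. Of the 5 windows shown, TGATAA on the other strand stood in that of Rab7, and CCNCNCCC on either strand in those of Rab43, Rab8b, Rab10 and Rab7, while that of Rab5c held none of the letters searched. The 17 windows were rich in G and C, at 58.0% to 78.8%. These are matches of letters and not measured binding sites.

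Of the members with other roles, 3 reached 10 RPKM. Rab18, which acts on the endoplasmic reticulum and lipid droplets, was at 18.6, 16.4, 13.0 and 8.76 RPKM from R2 to R5, and its rank went from 15 of 55 in R2 to 6 in R4. Its R5 against R2 log2 ratio of -1 as deposited was 0.47 after median scaling and 0.16 without globin genes. Rab24, a Rab linked to autophagy, was at 30.8, 16.5, 8.18 and 13.4 RPKM. Its annotated exons share 62.4% of their length with Prelid1 on the opposite strand, which was at 269, 97.5, 40.2 and 81.6 RPKM, and whether the counting used strand is not given in the sources used here. If it did not, reads of both genes cannot be told apart.

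Rab44, a large Rab protein of blood cells with calcium-binding domains, had the lowest log2 ratio of RPKM + 1 among the 37 in R5 against R2. It was at 44.4, 3.23, 1.40 and 3.38 RPKM from R2 to R5. R2 stood at 13.7 times R3 (interval 12.4 to 15.2), and the log2 ratio of R5 against R2 was -3.37 as deposited, -1.90 after median scaling and -2.24 without globin genes. Several other genes of regulated granule release and related organelles had the same course. Rab27a, which docks secretory granules in leukocytes, was at 15.8, 1.11, 1.01 and 1.37 RPKM. Rab3d, another granule Rab, was at 8.13, 1.10, 0.47 and 0.74 RPKM. R2 stood at 14.3 times R3 for Rab27a (interval 11.7 to 17.5), and Rab3d, Rab27a and Rab44 were at least 2-fold lower in R5 than in R2 under each scaling.

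Rab31, Rab32, Rab37 and Rab38, of endosomes, lysosome-related organelles and granules, were also highest in R2, as were 86.2% of all genes as deposited. Rab31, Rab37 and Rab38 reached 1 RPKM in R2 alone, so the filter fixed R2 as their highest library. Rab31 was at 6.39, 0.71, 0.51 and 0.49 RPKM. Rab32 was at 9.02, 2.37, 0.67 and 1.44 RPKM. Rab38 was at 4.15, 0.37, 0.30 and 0.95 RPKM, and Rab37 at 2.19, 0.23, 0.26 and 0.60 RPKM. Markers of some other blood cells moved with these genes. Between R2 and R3 the summed granulocyte markers went down by 14.4-fold, the 6 mast cell markers by 11.8-fold, from 38.5 to 3.27 RPKM, and the 5 lymphoid markers by 13.5-fold, from 28.6 to 2.12 RPKM, with Cd3e at 0 in every library. The macrophage markers went down by only 1.81-fold, from 89.7 to 49.5 RPKM, and the megakaryocyte markers were at 38.2 and 43.3 RPKM. Of the mast cell list, Mcpt8, a basophil protease gene, held 29.9 of the 38.5 RPKM in R2 and 2.42 of the 3.27 RPKM in R3. Cpa3 was at 4.63 RPKM in R2, and Fcer1a was at 0 in R3, R4 and R5. The sum of this list thus mostly follows Mcpt8. The part of these cells in the R2 level of Rab44, Rab27a, Rab3d, Rab31, Rab32, Rab37, Rab38 and Rab4a was not tested.

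**Figure D2:**
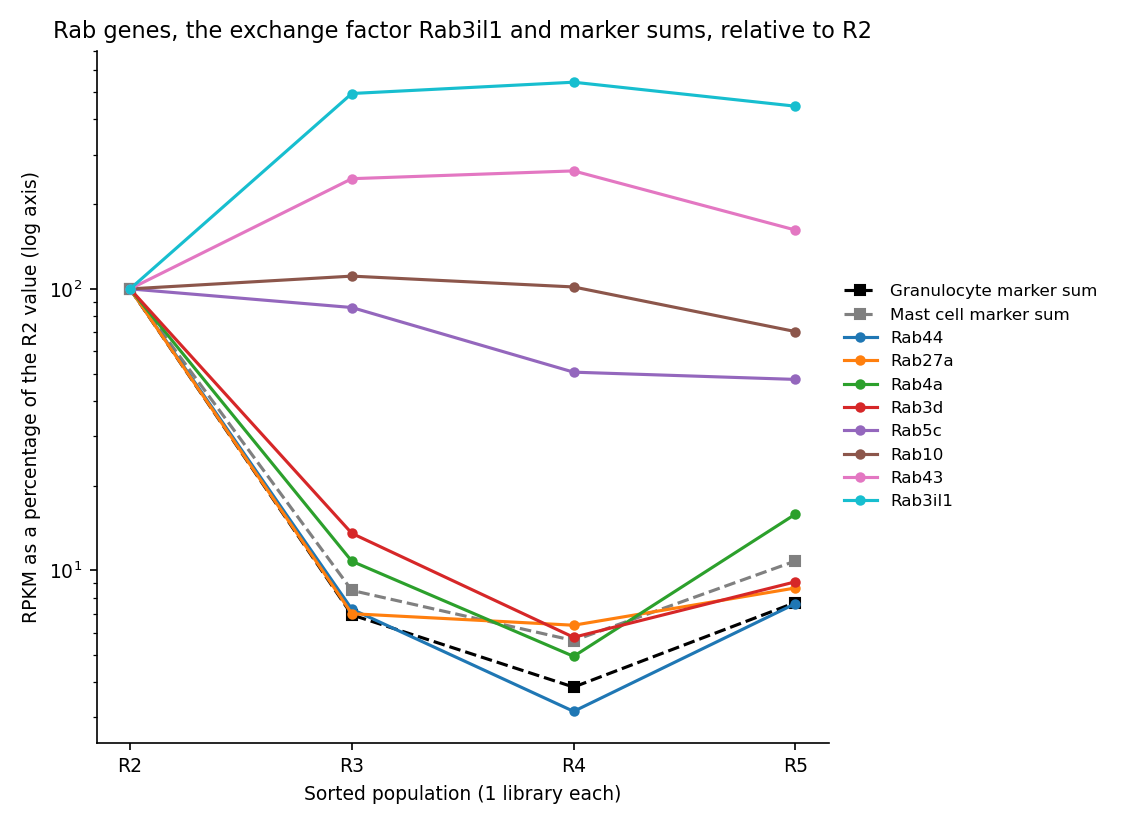
RPKM in each population as a percentage of the R2 value (log axis) for 7 Rab genes, the exchange factor gene Rab3il1 and the summed RPKM of 2 marker lists (granulocyte and mast cell), with 1 library per point. The mast cell sum is mostly Mcpt8. Rab44, Rab27a, Rab4a and Rab3d lie beside the granulocyte and mast cell sums, at 0.135 of R2 or less in R3, while Rab43 and Rab3il1 lie above 100% in R3, R4 and R5.

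Over the whole course, R5 against R2, 27 of the 37 Rab genes past 1 RPKM were lower by at least 2-fold as deposited and 0 higher, against 76.9% and 2.74% of all genes. Their median log2 ratio was -1.40, beside -1.65 for all genes. With median scaling 5 were lower and 3 higher, against 13.7% and 9.42% of all genes, with a median of -0.13 beside -0.42. With globins removed 10 were lower and 2 higher, against 29.8% and 7.35%, with a median of -0.31 beside -0.68. The 3 higher ones with median scaling were Rab43 at 2.19, Rab30 at 1.21 and Rab10 at 1.03, and the 5 lower ones were Rab44, Rab27a, Rab31, Rab3d and Rab7. A gene that passed 1 RPKM through R2 alone had to be lower later, so these counts describe the libraries. In R5 against R3, whose ratios leave R2 out, 2 Rab genes were lower and 0 higher as deposited, against 13.1% and 0.664% of all genes. The 2 were Rab7 and Rab6, and the median was -0.57 beside -0.47. The genes counted were still those that reached 1 RPKM in any library, R2 among them, and median scaling also drew on R2. With median scaling 1, Rab4a, was higher and 0 lower, against 2.94% and 0.986%, and with globins removed neither direction had a member, against 1.84% and 2.95%.

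**Figure D3:**
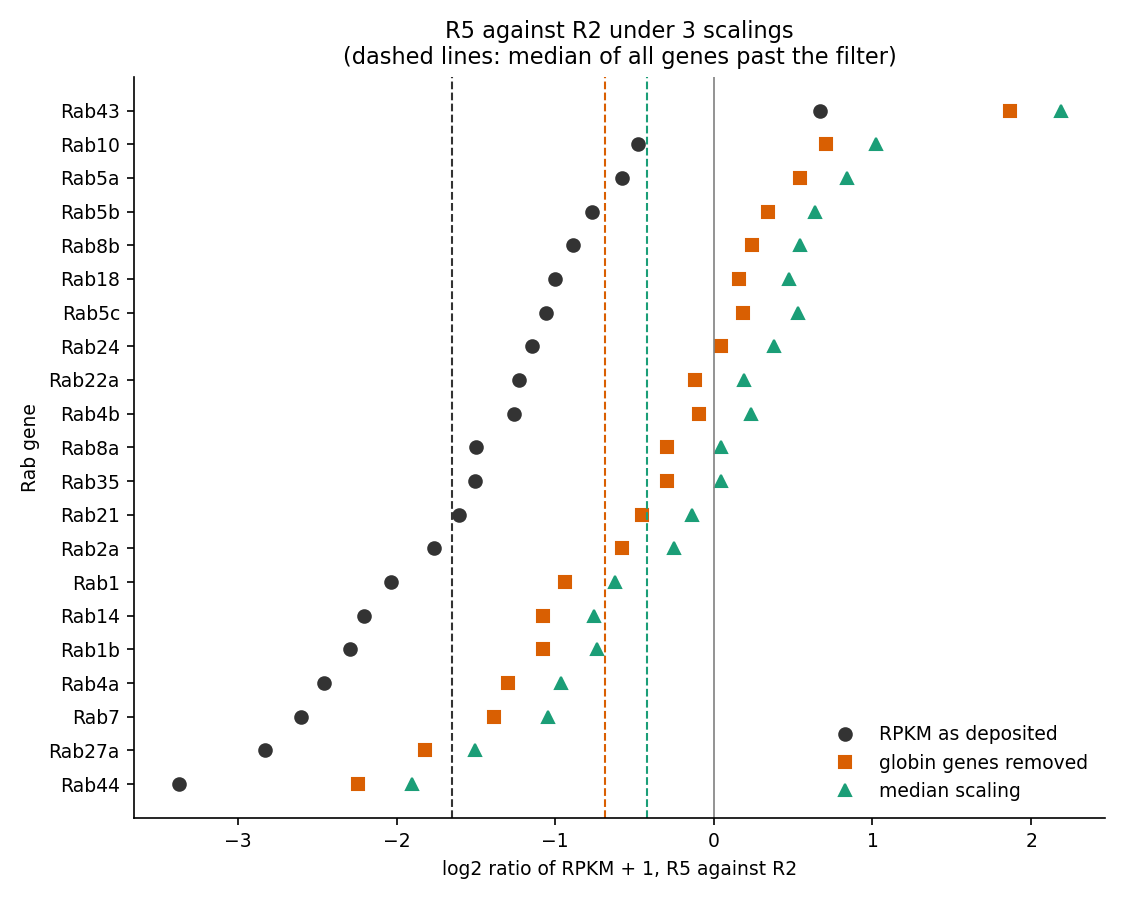
Log2 ratio of RPKM + 1 in R5 against R2 for the 21 Rab genes that reached 10 RPKM, as deposited (circles), with globin genes removed (squares) and with median scaling (triangles), with the median of all genes past the filter under each scaling as a dashed line. Rab43 lies at 0.67, 1.87 and 2.19 and Rab44 at -3.37, -2.24 and -1.90.

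By step, 17 of the 37 Rab genes were at least 2-fold lower in R3 than in R2 and 1 higher, against 55.1% and 3.81% of all genes, with a median of -0.86 beside -1.09. With median scaling 6 remained below the 2-fold limit, Rab44, Rab27a, Rab3d, Rab31, Rab4a and Rab38, against 18.0% of all genes, and Rab43 was the 1 higher, against 8.38%. With globins removed 7 were lower and 1 higher, against 22.8% and 7.81%. In R4 against R3, 6 were lower and 0 higher as deposited, against 32.1% and 0.493%, with a median of -0.63 beside -0.77. Those 6 were Rab1b, Rab35, Rab8a, Rab9, Rab7 and Rab32. With median scaling 0 were lower and 1, Rab43 at 1.16, was higher, against 0.382% and 4.26%. With globins removed neither direction had a member, against 2.83% and 1.98%. In R5 against R4, Rab4a at 1.25 was the 1 gene higher and 0 were lower, against 3.97% and 0.604%, with a median of 0.24 beside 0.27. With median scaling Rab4a was higher at 1.08, and Rab43 at -1.05 and Rab8b at -1.21 were lower, against 1.75% and 2.56% of all genes. With globins removed 1 was higher and 1 lower, against 2.98% and 1.58%.

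The first and the last step had opposite orders among the Rab genes. Across the 37 genes, Pearson's r between the log2 ratios of R3 against R2 and of R5 against R4, which share no library, was -0.65 (Spearman's rho -0.58). Across all 9942 genes it was -0.53. These are descriptions across genes, which all come from the same 4 libraries and are not independent replicates. Rab44, Rab4a, Rab4b, Rab1b and Rab2a were below the all-gene median of -1.09 in the first step. In the last they were above that of 0.27, at 0.87, 1.25, 0.88, 0.65 and 0.64. Rab27a, Rab7, Rab14 and Rab21 were below the median in both steps, at 0.24, -0.12, 0.13 and 0.17 in the last. Rab43, Rab8b, Rab10 and Rab18 were above the all-gene median in the first step, Rab18 at -0.17, and negative in the last, at -0.68, -0.84, -0.50 and -0.52. So were Rab5c, Rab5b and Rab1, at -0.22, 0.04 and -1.08 in the first step and -0.08, -0.35 and -0.37 in the last. Of these, Rab1 was only just above the median. Rab24, Rab22a, Rab8a, Rab35 and Rab5a were above the all-gene median in the first step too but positive in the last, at 0.65, 0.42, 0.45, 0.20 and 0.03. Summed markers of other cells were higher in R5 than in R4 as well, by 2-fold for granulocytes and 1.92-fold for the mast cell list, mostly Mcpt8. They were higher by 2.36-fold for macrophages (8 measured of 9, 20.6 to 48.7 RPKM) and 2.93-fold for megakaryocytes (6 of 6, 23.0 to 67.3 RPKM). Hepatocyte markers were higher by 2.10-fold (6 of 6, 158 to 332 RPKM), lymphoid ones by 2.15-fold and endothelial ones by 2.04-fold (4 of 4, 1.65 to 3.36 RPKM). Of the erythroid markers, Slc4a1 and Alas2 were lower, at 0.65 and 0.783 of their R4 levels, Klf1 was at 0.995 and Epor was higher, at 1.12. The part of such cells in the R5 values of Rab44, Rab4a, Rab4b, Rab1b, Rab2a and Rab24 was not tested.

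**Figure D4:**
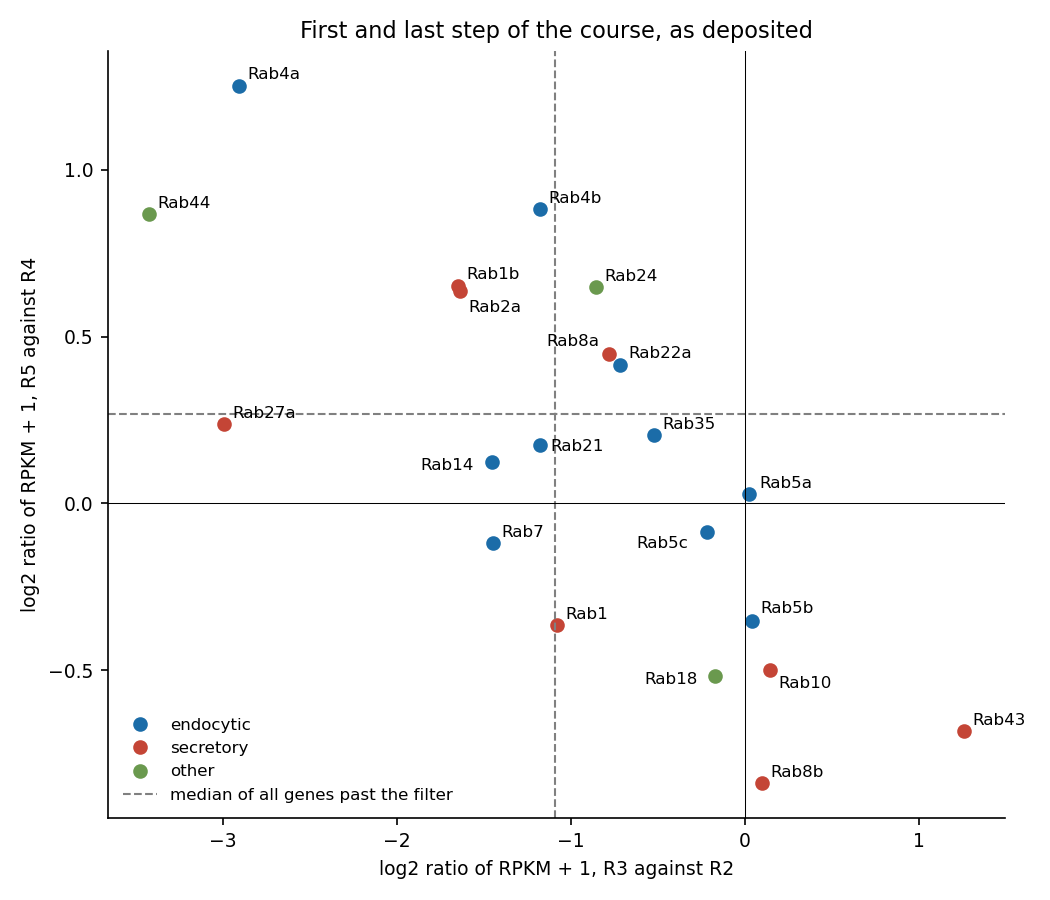
Log2 ratio of RPKM + 1 for R5 against R4 plotted over that for R3 against R2, as deposited, for the 21 Rab genes that reached 10 RPKM, with the medians of all genes past the filter as dashed lines. Rab4a and Rab44 lie at the upper left and Rab43, Rab8b, Rab10 and Rab18 at the lower right.

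Shares within a subfamily do not depend on how the libraries are scaled to each other. In the Rab8 pair, the Rab8b share was 20.8% in R2 (interval 19.8% to 21.8%), 33.0% in R3, 51.0% in R4 (interval 49.2% to 52.8%) and 28.1% in R5. In the Rab4 pair, Rab4a made up 59.7% in R2 (interval 57.7% to 61.6%), 27.6% in R3 (interval 24.1% to 31.3%), 27.5% in R4 and 37.4% in R5 (interval 33.3% to 41.6%). In the Rab1 pair, Rab1 made up 16.5%, 22.0%, 31.2% and 16.8%. Balance within each of these pairs thus shifted between R2 and R4 by more than counting error. In the Rab5 subfamily it shifted less, though also beyond counting error, with Rab5c at 87.8% in R2 (interval 87.3% to 88.3%), 85.8% in R3, 84.3% in R4 (interval 83.6% to 85%) and 85.2% in R5. Rab31 made up 33.2% of the sum with its relative Rab22a in R2 and 8.74%, 12.9% and 9.07% in R3, R4 and R5. Rab3d made up 74.3% of the Rab3 sum in R2 and 50.0%, 51.1% and 42.5% after it, the rest being mostly Rab3a at 2.77 RPKM in R2 and 1.04 in R3.

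**Figure D5:**
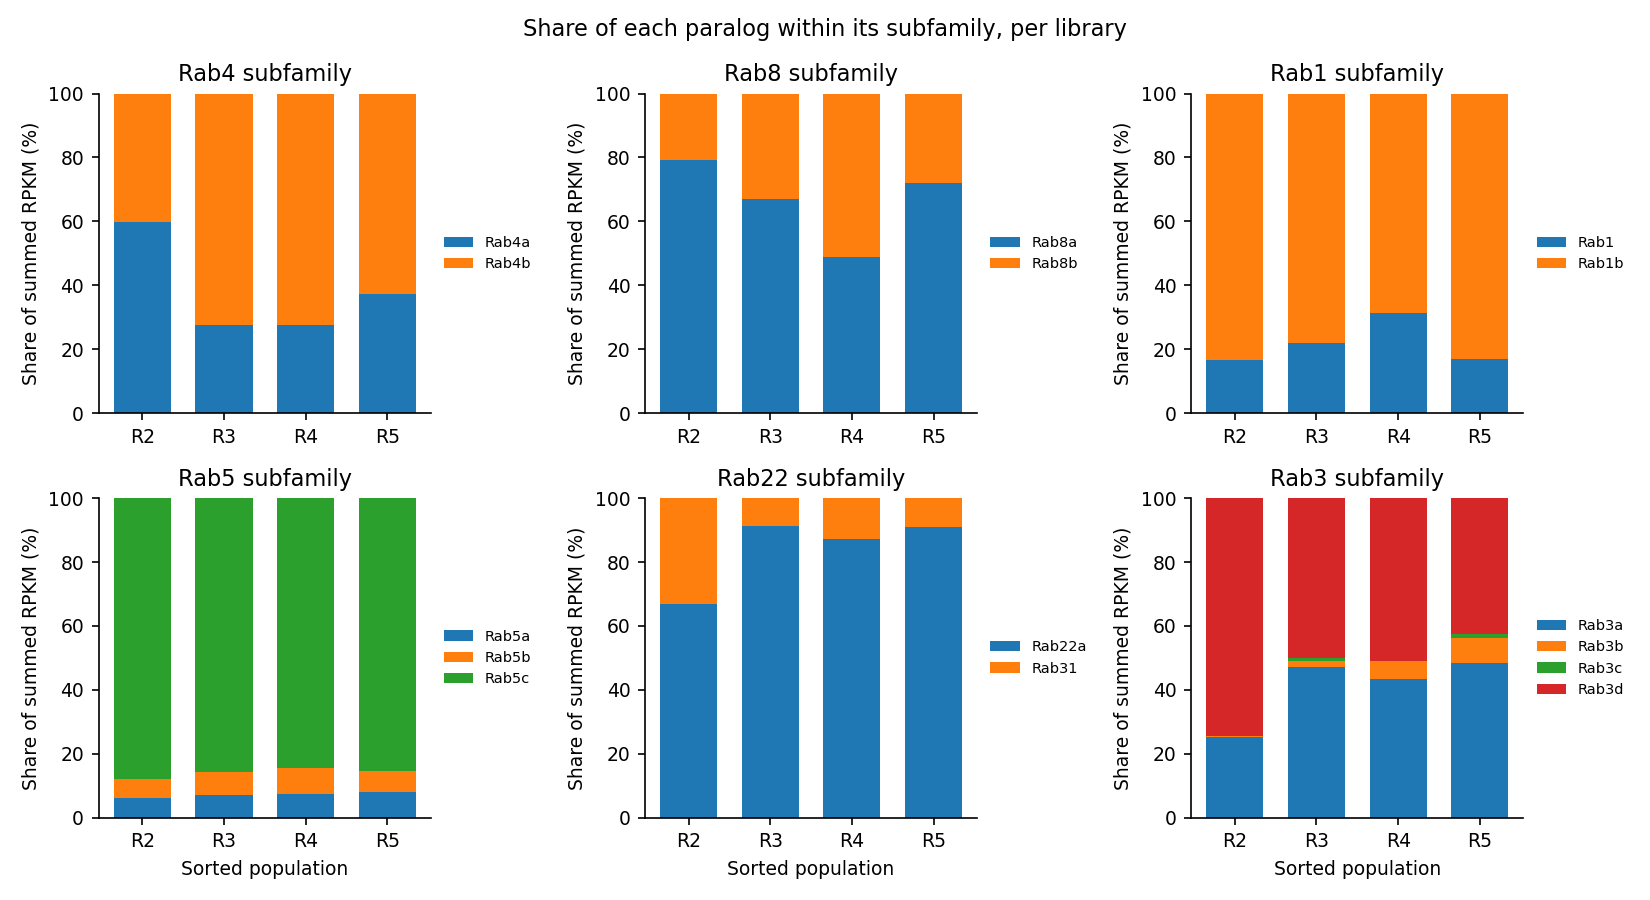
Share of each paralog in the summed RPKM of its subfamily (%, bars start at 0) in R2, R3, R4 and R5, 1 library each, for 6 subfamilies. The Rab8b share goes from 20.8% in R2 to 51.0% in R4, the Rab4a share from 59.7% in R2 to 27.6% in R3, and the Rab5c share lies between 84.3% and 87.8%.

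Of the 16 Rab genes that reached 1 but not 10 RPKM, 13 were highest in R2, 2 in R3 and 1 in R5. Of all 37 past 1 RPKM, 29 were highest in R2 as deposited, beside 86.2% of all genes, and 18 with median scaling, beside 62.4%. Rab6, a Golgi Rab, was at 8.53, 8.58, 4.51 and 3.32 RPKM. Rab11b, of recycling endosomes, was at 5.49, 4.40, 2.95 and 2.64 RPKM. Rab30, a Golgi Rab, was the only one of the 37 highest in R5, at 0.72, 1.25, 1 and 1.49 RPKM, and rested on about 159 to 309 estimated reads a library. The 18 genes under 1 RPKM ranged up to 0.97, the R2 value of Rab2b, and 13 of them had under 30 estimated reads in every library. Rab9b was listed at 0 in all 4 libraries. Gapdh, a gene of all cells, is also listed at 0 in R3.

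Among the other genes of the Rab cycle, Rab3il1 was higher after R2. Of a list of 111 regulators and effectors, 103 were found under the symbol listed and 80 reached 1 RPKM. In R5 against R2, as deposited, 2 of the 80 were higher by at least 2-fold and 66 lower, beside the 2.74% and 76.9% of all genes given above, 4 and 9 with median scaling, beside 9.42% and 13.7%, and 3 and 26 with globins removed, beside 7.35% and 29.8%. Their medians were -1.67, -0.51 and -0.74, beside -1.65, -0.42 and -0.68 for all genes. The 2 higher ones were Rab3il1 and Dennd2c, the latter named after its values were seen. Rab3il1, an exchange factor for Rab3 and Rab8 proteins, was at 26.3, 130, 143 and 117 RPKM from R2 to R5. Its log2 ratio in R5 against R2 was 2.12 as deposited, 3.65 after median scaling and 3.33 without globin genes, and in R4 and R5 it stood above each of the 55 Rab genes. Dennd1a, an exchange factor for Rab35, was at 14.4, 12.6, 10.3 and 9.54 RPKM. Rin3, an exchange factor for the Rab5 group, was at 31.1, 2.48, 1.41 and 3.12 RPKM, the lowest ratio of the list at -2.96. Rin3 was highest in R2, as Rab44 and the granulocyte markers were, and their part in it was not tested.

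Genes that attach the lipid anchor or handle inactive Rab proteins were lower after R2. Rabggtb, a subunit of the enzyme that adds the anchor, was at 78.8, 36.9, 12.0 and 15.6 RPKM. Rabac1, which binds anchored Rab proteins, was at 63.1, 19.5, 8.15 and 17.2 RPKM. Their log2 ratios in R5 against R2 were -2.26 and -1.82 as deposited and -0.71 and -0.27 with median scaling. Of the GTPase activating proteins, Tbc1d10b was at 40.3, 30.2, 16.6 and 17.9 RPKM. Tbc1d13 was at 35.4, 6.06, 2.55 and 4.24 RPKM, and Tbc1d9b at 29.6, 5.20, 2.05 and 3.29 RPKM. Tbc1d13 and Tbc1d9b were at least 2-fold lower in R5 than in R2 under each scaling, and Tbc1d10b was at 0.41 with median scaling. Of the effectors, Unc13d, a partner of Rab27a in granule release, was at 52.8, 23.9, 8.25 and 13.4 RPKM. Optn, an effector of Rab8 that also serves as an autophagy receptor, was at 14.0, 12.9, 9.21 and 9 RPKM, and the inositol phosphatase gene Inpp5b at 18.0, 17.5, 6.66 and 5.77. Sbf1, of the DENN-domain exchange factor group, was at 39.1, 17.7, 7.31 and 9.53 RPKM. With median scaling Optn stood at 0.87 in R5 against R2 and Unc13d at -0.36.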

How the data were processed

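RNA of 4 sorted populations was measured, 1 library each. The depth of 20700000 to 27400000 reads is an estimate from a few value steps, fitted within a preset range. Per the file headers and titles, the authors deposited RPKM per gene symbol, and the build was mm9 per the submitters' processing notes. For the aligner, counting program, annotation and gene length: not given in the sources used here. From these values log2 ratios of RPKM + 1 were computed for every gene reaching 1 RPKM in any library, and 2-fold was the limit for a call. With 1 library per population there was no test. Median scaling used genes with at least 5 RPKM in every library, and 8 globin genes were removed in the other rescaling. Reads were estimated from exonic length in GENCODE M21, matched by symbol or RefSeq synonym. Promoter windows were found for 46 of 55 members. The call step was tested on simulated data. The summed level of the erythroid marker list is not reported here. Members and lists were chosen with earlier results of these data known. Rab genes at 10 RPKM or more are named, as are, from the list of regulators, the 2 highest of each class and the 3 highest and 3 lowest R5 against R2 ratios among those with at least 10 RPKM in R2 or R5. Python 3.11.15, pandas 2.3.3 and SciPy 1.17.1 were used. Pseudocounts, filters and scalings were varied.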

Additional observations from a re-analysis of the deposited data

How the results depend on the processing

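With 1 library per population the results have no replicate error. No paired analysis was possible because each population has 1 library. Values are given in the order R3 against R2, R4 against R3, R5 against R4 and R5 against R2. The median log2 ratio of the Rab genes was -0.92, -0.96, 0.41 and -1.71 with a pseudocount of 0.1 RPKM, -0.52, -0.37, 0.08 and -0.90 with 5 RPKM, -0.42, -0.45, 0.13 and -1 with no filter, and -0.97, -0.78, 0.15 and -1.54 with a filter of 5 RPKM. It was -0.05, 0.07, 0.05 and -0.13 after median scaling and -0.13, -0.23, 0.16 and -0.31 without globin genes. Leaving out Rab24, chosen after seeing the data, gave -0.84, -0.61, 0.22 and -1.45. Genes at least 2-fold lower numbered 6, 0, 2 and 5 after median scaling and 7, 0, 1 and 10 without globin genes. Genes at least 2-fold higher numbered 1 for R4 against R3 and 3 for R5 against R2 after median scaling, and 2 in R5 against R2 with globins removed. A pseudocount of 0.1 RPKM gave 18 lower for R4 against R3 and 6 higher for R5 against R4. With 5 RPKM, 8 were lower for R3 against R2, 2 for R4 against R3 and 15 for R5 against R2, and 0 were higher for R5 against R4. R5 against R3 in place of R5 against R2, also chosen after seeing the data and with the same genes, gave 2 lower and a median of -0.57. Over all 21 Rab genes at 10 RPKM or more, in the same order of comparisons, the sign of 5, 13, 4 and 11 ratios changed after median scaling. Without globin genes that of 3, 5, 2 and 7 did. Among ratios past 2-fold as deposited, median scaling changed the sign for Rab7 in R4 against R3, to 0.00, and in R5 against R2 for Rab4b (0.23), Rab8a (0.04), Rab24 (0.38), Rab22a (0.19), Rab35 (0.05), Rab18 (0.47) and Rab5c (0.53). Removing globins did so in R5 against R2 for Rab24 (0.05), Rab18 (0.16) and Rab5c (0.18). These rescalings differ from the deposited values by 1 factor per library. All 37 genes past 1 RPKM had at least 30 estimated reads in some library, so leaving out members under that number could change no count. Shares within subfamilies and role groups moved by less than counting error without genes under 1 RPKM, where at least 2 genes were left. Depth limits mainly the 13 members with under 30 estimated reads in every library.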
